A study of Mus musculus with 2 samples.

Results

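The colon epithelial genes described here are 39 genes that mark the lining of the large intestine, followed in RNA of inflammatory monocytes sorted from the tissue beneath that lining. They were chosen by name, and each was read from its probe set with 1 gene symbol or, where it had several such probe sets, from the one with the highest mean of both arrays. All 39 were found among 22184 genes. The RNA came from the colon lamina propria of WT mice (strain label C57BL/6) and of Nlrp6-/- mice (strain label C57Bl/6), which lack a NOD-like receptor that the gut epithelium itself is known to express. Both groups had been given azoxymethane (AOM), a carcinogen, at 10 mg/kg and 2% dextran sodium sulfate (DSS), which damages the colon lining, for 5 days from day 5. Cells were taken on day 10. The sort kept CD11b+ cells with high Ly6C and removed CD3+ and Ly6G+ cells, and the gate in the labels names no epithelial surface marker. Each genotype was measured on 1 array, so the values below carry no error and no p-value, and each difference describes a pair of arrays. The labels do not give the number of mice behind each RNA.

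The colon lining is a single layer of cells renewed from stem cells at the crypt base. Absorptive colonocytes take up water and salt and face the lumen at the surface, and goblet cells secrete the mucus gel that keeps bacteria off the tissue. All of these cells are held together by E-cadherin, EpCAM and claudins and carry a cytoskeleton of simple keratins, so these genes mark the lining as a whole. Blood monocytes are not known for making most of these products. In a bulk sample, more cells of a type and more RNA per cell cannot be told apart.

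Genes of the lining were mostly higher in the Nlrp6-/- sample, but not all of them. Levels are log2 values from robust multiarray averaging (RMA), and a difference is Nlrp6-/- minus WT on that scale, so 1.00 is 2-fold. The detection floor of an array, 3.26 in WT and 3.23 in Nlrp6-/-, is the level below which 95% of 1401 probe sets of smell and vomeronasal receptor genes lay. A gene is called detected, or measured, if it reached the floor in either sample. Of the 39 genes, 25 were detected, 21 of them on both arrays, and 14 lay below both floors. With a gene below the floor on 1 array counted at its bound, the level on the other array minus the floor, 11 of the 39 reached a 2-fold excess in Nlrp6-/- and 0 reached it in WT. Among all 9528 detected genes, 1.62% were higher by that much and 0.325% lower. Because the 39 genes were chosen with earlier results of these data known, the 2 shares are a description and not a test. The 11 were Epcam, Cdh1, Krt18, Muc13, Tspan8, Lgals4, Pigr, Muc3, Lypd8, Guca2a and Zg16. Zg16 passed the floor in Nlrp6-/- alone, where it could only be higher. With the floor raised to the 99th percentile of the receptor probe sets, 5.08 in WT and 4.90 in Nlrp6-/-, 14 of the 39 genes were measured. Of the 11, 4 kept the call, namely Lypd8, Lgals4, Muc3 and Guca2a. Among all genes measured at that floor 1.88% were at least 2-fold higher. Over all 39 genes, measured or not, the median difference was 0.21 and 32 lay above their WT level, against a median of -0.01 over all 22184 genes, of which 10664 lay above. The median of the 25 detected genes was 0.95. That figure includes 4 genes that passed the floor in Nlrp6-/- alone, which could only be higher there.

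**Figure D1:**
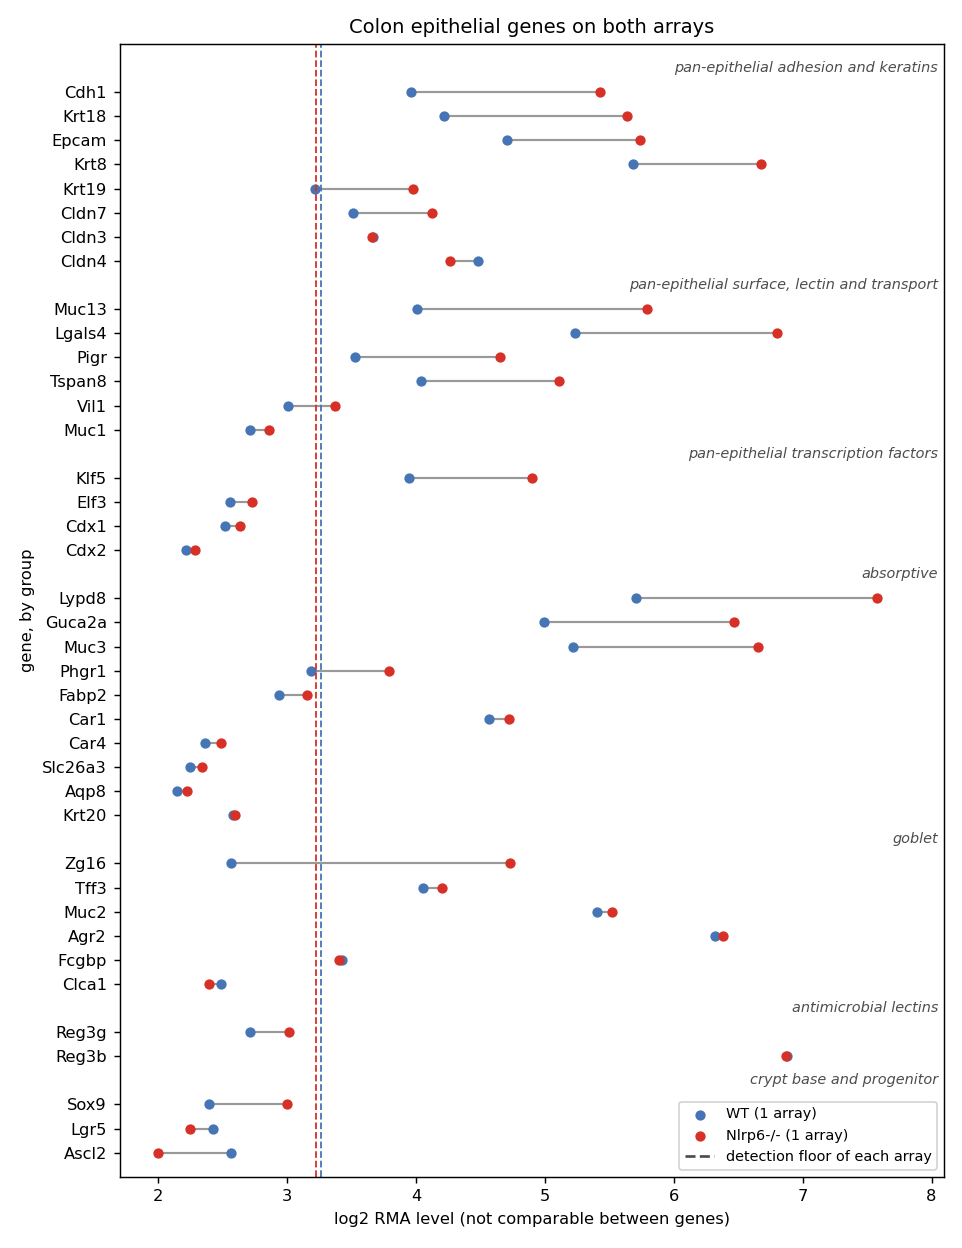
Log2 RMA level of each of the 39 genes in WT (blue) and Nlrp6-/- (red), 1 array each, joined by a grey line and ordered within each group by the difference. Dashed lines are the detection floors of 3.26 (WT) and 3.23 (Nlrp6-/-). Muc13, Lypd8 and Lgals4 are among the widely separated pairs, while Muc2, Agr2 and Reg3b nearly coincide.

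Cell adhesion genes and keratins differed within the group. Cdh1, which encodes E-cadherin, the adhesion protein of epithelial junctions, was at 3.96 in WT and 5.43 in Nlrp6-/-, differing by 1.47. Epcam, the epithelial surface adhesion molecule, was at 4.71 and 5.74, differing by 1.03. The Nlrp6-/- array was thus the higher one for both adhesion molecules. Krt8 and Krt18 encode the partner keratins of simple epithelia and lie next to each other on chromosome 15. Krt8 was at 5.68 in WT and 6.67 in Nlrp6-/-, differing by 0.99. Krt18 was at 4.22 and 5.63, differing by 1.42. Krt19, another simple keratin, was below the floor in WT at 3.21 and at 3.98 in Nlrp6-/-, which is at least 1.64-fold higher. The 3 claudins, which seal tight junctions, did not share one pattern. Cldn7 was at 3.51 in WT and 4.12 in Nlrp6-/-, differing by 0.61. Cldn3 was at 3.67 and 3.66, and its chromosomal neighbour Cldn4 was lower in Nlrp6-/-, at 4.48 and 4.26.

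The second probe sets of Cdh1 and Krt18 gave smaller differences. That of Cdh1 was at 4.38 in WT and 4.67 in Nlrp6-/-, differing by 0.29 in place of 1.47. That of Krt18 was at 3.76 and 4.09, differing by 0.33 in place of 1.42. Both probe sets of each gene were higher in Nlrp6-/-, but the size, and whether the gene reached 2-fold, depended on the probe set read. Of the other 3 genes with 2 probe sets, Muc2 was at 3.76 and 3.83 on its second, Phgr1 was below both floors on its second at 2.14 and 2.27, and Lgr5 was below both floors on each.

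The 4 surface and transport genes of the lining that lay above both floors were higher in Nlrp6-/-. Muc13, a membrane-bound mucin of the apical surface, was at 4.004 in WT and 5.79 in Nlrp6-/-, differing by 1.79. Lgals4, a galectin of the gut lining that binds sugars on glycoproteins and glycolipids, was at 5.23 and 6.80, differing by 1.57. Pigr, the receptor that carries IgA across the epithelium into the lumen, was at 3.53 and 4.66, differing by 1.13. All 3 were thus more than 2-fold apart. Tspan8, a tetraspanin of the cell membrane, was at 4.04 in WT and 5.11 in Nlrp6-/-, differing by 1.08. Vil1, the microvillus protein villin, was below the floor in WT at 3.01 and just above it in Nlrp6-/- at 3.37, where its bound is 1.08-fold. Vil1 could therefore only be higher in Nlrp6-/-. Muc1, another membrane mucin, was below both floors at 2.71 and 2.86.

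Of the transcription factors, Klf5, which is active in proliferating crypt cells, was at 3.95 in WT and 4.90 in Nlrp6-/-, differing by 0.95. The others were below both floors. Cdx2, which specifies intestinal identity, was at 2.21 and 2.29, its relative Cdx1 at 2.51 and 2.63, and the epithelial ETS factor Elf3 at 2.56 and 2.73. The intestinal regulators Cdx1 and Cdx2 were therefore not detected in either sample. Over the 18 pan-epithelial genes the median difference was 0.86. Of the 18, 14 were detected and 7 were at least 2-fold higher, against 1.62% of all 9528 detected genes.

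Of the 10 absorptive genes, 3 reached a 2-fold excess in Nlrp6-/-, 2 were detected without reaching it and 5 were not detected. The share over all 9528 detected genes was 1.62% at least 2-fold higher and 0.325% lower. Lypd8, a secreted protein of the colon surface that keeps flagellated bacteria away from the epithelium, was at 5.71 in WT and 7.57 in Nlrp6-/-, differing by 1.87. Guca2a, the hormone guanylin, which regulates salt and water secretion, was at 4.99 and 6.46, differing by 1.47. Muc3, a membrane mucin of the brush border, was at 5.21 and 6.66, differing by 1.44. These 3 were the absorptive genes at least 2-fold apart. Car1, a carbonic anhydrase abundant in colonocytes, was above both floors and nearly level, at 4.57 in WT and 4.72 in Nlrp6-/-. Phgr1, a small protein of the gut lining, was below the floor in WT at 3.18 and at 3.79 in Nlrp6-/-, at least 1.44-fold higher. The other 5 were below both floors. They were Car4, a membrane-anchored carbonic anhydrase, at 2.36 and 2.48, the chloride and bicarbonate exchanger Slc26a3 at 2.25 and 2.34, and the water channel Aqp8 at 2.14 and 2.22. The keratin of differentiated surface cells, Krt20, was at 2.58 and 2.59, and Fabp2, the intestinal fatty acid binding protein, at 2.94 and 3.15. Over all 10 absorptive genes the median difference was 0.18.

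Of the 6 goblet cell genes, 4 were above both floors and nearly level, 1 was not detected and 1 was at least 2-fold higher in Nlrp6-/-. The share over all 9528 detected genes was 1.62% at least 2-fold higher. Muc2, the gel-forming mucin of colonic mucus, was at 5.41 in WT and 5.52 in Nlrp6-/-, differing by 0.11. Agr2, the endoplasmic reticulum protein needed for mucin folding, was at 6.32 and 6.38. Tff3, a trefoil peptide secreted with mucus, was at 4.05 and 4.20. These 3 genes differed by 0.06 to 0.15 between the arrays. Fcgbp, an IgG-binding protein of mucus, read 3.43 in WT and 3.40 in Nlrp6-/-, and Clca1, a protease of mucus, was below both floors at 2.49 and 2.39. The higher gene was Zg16, a mucus lectin that binds Gram-positive bacteria. It was below the floor in WT at 2.57 and at 4.73 in Nlrp6-/-, a measured difference of 2.16 and a bound of at least 2.77-fold. Over all 6 goblet genes the median difference was 0.09. Whether goblet and absorptive genes differ in their response could not be tested with 1 array per genotype.

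Reg3b, an antimicrobial lectin that inflamed gut epithelium secretes, was at 6.88 in WT and 6.87 in Nlrp6-/-. Its relative Reg3g was below both floors at 2.71 and 3.01. The crypt base genes were also below both floors. Lgr5, the stem cell receptor for R-spondins, read 2.43 in WT and 2.25 in Nlrp6-/-, and Ascl2, the transcription factor of those stem cells, at 2.56 and 2.00. Sox9, a factor of crypt progenitors, was at 2.40 and 3.00. The direction of these values, all under the floor, is not interpreted.

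**Figure D2:**
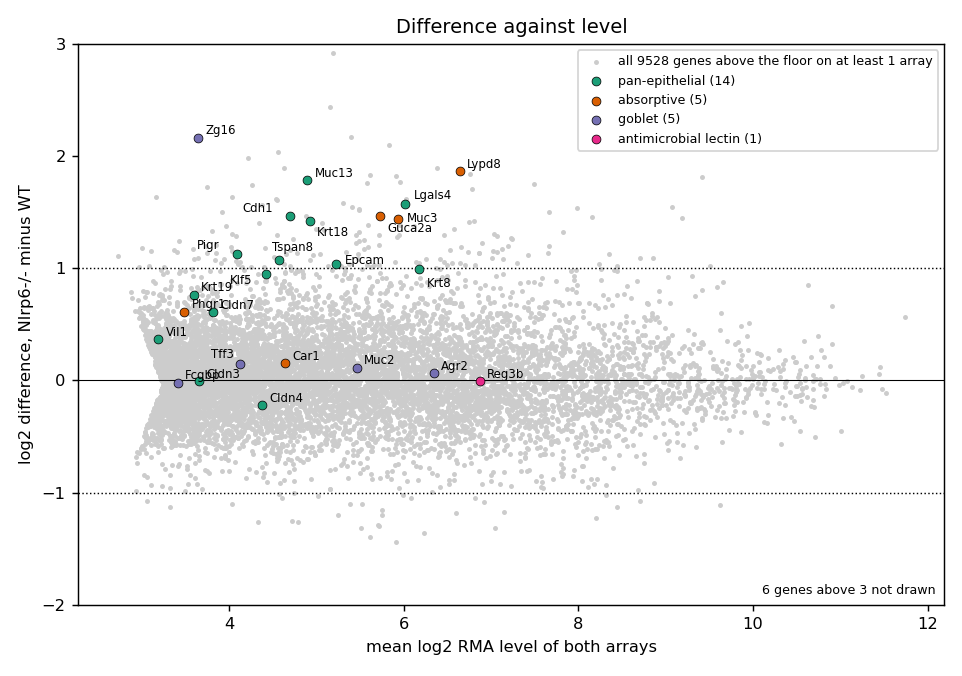
Log2 difference (Nlrp6-/- minus WT) against the mean log2 RMA level of both arrays for the 9528 detected genes (grey) and the 25 colon epithelial genes among them (coloured by group). The 6 genes that differ by more than 3 lie outside the plot, and dotted lines mark 2-fold. The 10 genes above the upper line besides Zg16, which is drawn at its measured difference of 2.16, spread over the middle of the level range, and Cldn4 is the lowest of the coloured points at -0.22.

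The size of these differences was set beside genes of similar level. Measured genes whose mean level lay between those of the lowest and highest measured member, 3.19 and 6.88, numbered 7380, and 1.67% of them were 2-fold or more above their WT level and 0.312% as far below it. Their differences had a median of 0.02 and an SD across genes of 0.39. The differences of the 1401 receptor probe sets, which carry little signal, had an SD of 0.19, and 0 of them reached 2-fold in either direction. At 1.5-fold, 15 of the 25 detected epithelial genes were higher and 0 lower, against 6.21% and 3.05% of all 9528 detected genes.

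Promoter sequence was examined because part of the list was higher in Nlrp6-/- and part was level. Of the 39 genes, 29 had a start site in the RefSeq promoter table (GRCm38.p6), 9 of them at least 2-fold higher. The 250 bases before each start were searched on both strands for 5 short motifs: TTTATG, which CDX factors bind, AGATAA, which GATA factors bind, TGANTCA, the AP-1 site, CAAAGTCCA, an HNF4 site, and the core of the interferon-stimulated response element. The CDX letters were in 10.8% of all 32851 windows and in 4 of the 29 genes, namely Epcam, Muc13, Agr2 and Reg3b. GATA letters were in 9.99% of windows and in 5 genes (Guca2a, Lypd8, Krt20, Krt8 and Muc2), and AP-1 letters in 6.75% and in 4 (Guca2a, Muc13, Cldn4 and Muc2). HNF4 letters were in 0.384% of windows and in 1 gene, Muc13, before another of its starts than the one shown. The interferon element was in 2.98% of windows and in 1 gene, Cldn7, which was not among the 11. Among the 9 genes at least 2-fold higher, only Epcam, Muc13, Guca2a and Lypd8 held a match to any of the 5 motifs. The windows shown are therefore not typical of the 9. The windows of 3 genes that were at least 2-fold higher and of Muc2, which was level, are shown to let the letters be compared, all on the plus strand, 5′ to 3′, with motif matches in capitals.
Epcam, chr17:87635729-87635978: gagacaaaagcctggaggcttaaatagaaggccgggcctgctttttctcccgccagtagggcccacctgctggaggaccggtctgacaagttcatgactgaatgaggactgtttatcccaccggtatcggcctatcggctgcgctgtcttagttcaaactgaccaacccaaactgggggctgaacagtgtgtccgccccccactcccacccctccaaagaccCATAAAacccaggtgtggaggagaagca
Guca2a, chr4:119637482-119637731: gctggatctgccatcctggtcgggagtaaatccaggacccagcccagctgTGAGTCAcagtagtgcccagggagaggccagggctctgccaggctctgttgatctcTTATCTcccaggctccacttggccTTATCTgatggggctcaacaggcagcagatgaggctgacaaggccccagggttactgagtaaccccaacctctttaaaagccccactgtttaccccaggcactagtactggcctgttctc
Muc13, chr16:33793787-33794036: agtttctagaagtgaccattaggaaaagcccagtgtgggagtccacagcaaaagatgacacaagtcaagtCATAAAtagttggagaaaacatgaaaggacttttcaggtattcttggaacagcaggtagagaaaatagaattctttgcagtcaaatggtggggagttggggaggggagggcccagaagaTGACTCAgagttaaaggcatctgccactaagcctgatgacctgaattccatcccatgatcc
Muc2, chr7:141690090-141690339: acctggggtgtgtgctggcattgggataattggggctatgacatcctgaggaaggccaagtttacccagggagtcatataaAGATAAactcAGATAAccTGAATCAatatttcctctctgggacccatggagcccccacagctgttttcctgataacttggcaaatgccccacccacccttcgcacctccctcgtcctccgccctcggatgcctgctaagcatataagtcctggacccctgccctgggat
Epcam had 1 CDX match, written CATAAA on this strand, beginning 28 bases before the start. Guca2a had GATA matches at 144 and 120 bases and an AP-1 match at 200 bases before its start. Muc13 had a CDX match at 180 bases and an AP-1 match at 61 bases. Muc2, which did not differ, had the same kinds of letters as Guca2a, with GATA matches at 169 and 159 bases and an AP-1 match at 151 bases. A match is a description of the letters and not of binding.

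Further genes of the lining, from lists that do not overlap the 39, gave smaller differences. Of 85 such genes, 79 were matched and 30 detected. A 2-fold excess in Nlrp6-/- was reached by 3 of the 30 and the reverse by 0, against 1.62% and 0.325% of all 9528 detected genes. Chgb, 1 of the 3, passed the floor in Nlrp6-/- alone, where it could only be higher. The median over the 79 was 0.09. Of the 25 further pan-epithelial genes, 13 were measured and 0 were 2-fold apart. The serine protease inhibitor Spint2 was at 4.19 in WT and 5.08 in Nlrp6-/-, differing by 0.89, and the tetraspanin Tspan1 was at 2.72 and 3.59, with WT below the floor. Its relative Spint1 went the other way, at 6.57 and 6.10, differing by -0.47. In that list 12 genes were below both floors, among them the regulator Hnf4a at 2.65 and 2.66, the surface antigen Gpa33 at 2.97 and 3.12 and the splicing factor Esrp1 at 2.62 and 2.64. Another 10 were above both floors, among them Cdh17 at 3.30 and 3.73, Tmprss2 at 4.07 and 4.53 and Rab25 at 3.47 and 3.45.

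Of the 20 matched further absorptive genes, 7 were measured and 2 were at least 2-fold higher, where the share over all detected genes was 1.62%. Sprr1a, a cornified envelope protein, was at 5.81 in WT and 7.11 in Nlrp6-/-, differing by 1.30. Ceacam1, an adhesion molecule that myeloid cells also express, was at 6.43 and 7.72, differing by 1.29. Emp1, a membrane protein found in many cell types, was at 7.43 and 8.41. Of 13 matched further goblet and secretory genes 3 were measured and 0 were 2-fold apart. Spink4, a protease inhibitor of goblet cells, was at 5.16 in WT and 5.75 in Nlrp6-/-, Spdef, the goblet cell transcription factor, was at 3.80 and 3.63, and Creb3l1 was at 2.96 and 3.29. Among 9 matched genes of inflamed epithelium, 5 were measured and 0 were 2-fold apart. Dmbt1, a secreted scavenger receptor of mucosal surfaces, was at 4.84 and 5.47, Ly6d at 5.69 and 6.30, and the hydrogen peroxide generating oxidase Duox2 at 2.69 and 3.29, where WT was below the floor and the bound was 0.03. The other 2 were not higher, with the acute-phase protein Saa3, which macrophages also make, at 11.17 and 11.11 and the lectin Reg4 at 3.67 and 3.31. Of 12 enteroendocrine and tuft genes, 2 were measured. Chgb, a granule protein of endocrine cells, was below the floor in WT at 3.17 and at 4.67 in Nlrp6-/-, with a bound of 1.41, and Chga was at 3.32 and 3.51.

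**Figure D3:**
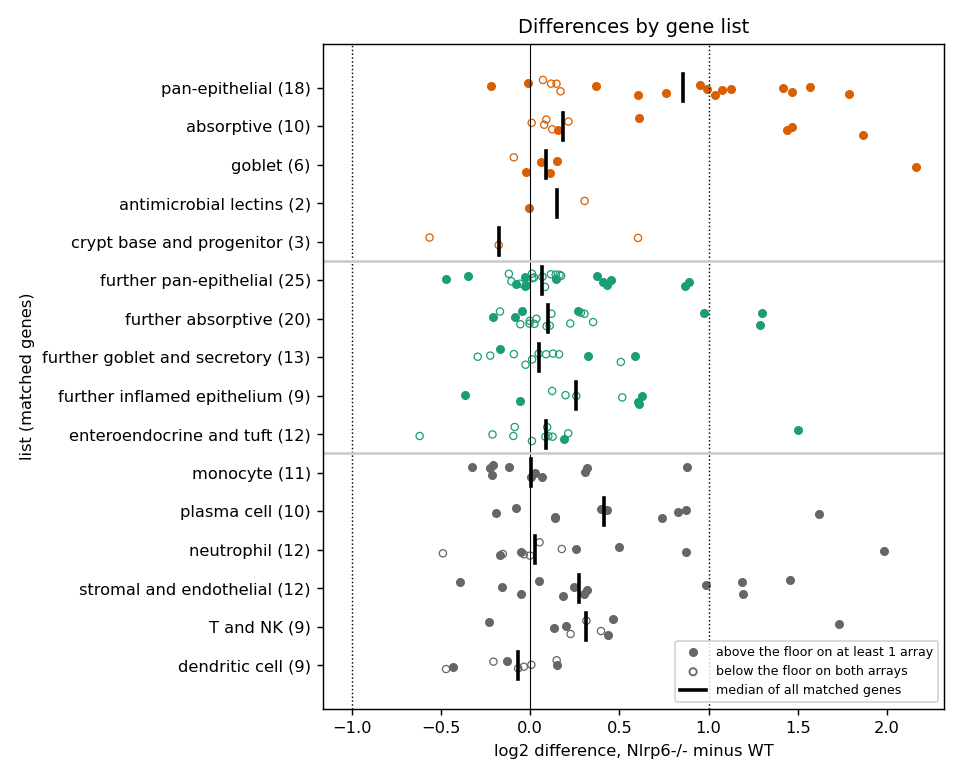
Log2 difference (Nlrp6-/- minus WT) of every matched gene in each list, with the 39 colon epithelial genes in orange, further epithelial genes in green and markers of other cells in grey. Filled points are detected genes, open points lay below both floors, black bars are medians over all matched genes, and dotted lines mark 2-fold. The pan-epithelial bar lies at 0.86 and the further pan-epithelial bar at 0.07.

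Markers of the sorted cells and of other cells are set beside the epithelial values. The share over all 9528 detected genes, for each count of these markers, was 1.62% at least 2-fold higher and 0.325% lower. The 11 matched monocyte markers were all above both floors with a median difference of 0.00, and 0 were 2-fold apart. Fcgr1, an Fc receptor, came nearest, at 7.05 in WT and 7.93 in Nlrp6-/-, while Ly6c2, the sorted antigen, differed by 0.31, the chemokine receptor Ccr2 by 0.32 and the lysozyme Lyz2 by -0.33. Those with the highest mean level were Cd14 at 10.78 in WT and 10.56 in Nlrp6-/-, Fcer1g at 10.60 and 10.60, and Tyrobp at 10.50 and 10.53. The summed level of all 11, on the linear scale, was 9793 in WT and 9320 in Nlrp6-/-. The summed linear level of the 25 measured epithelial genes was 699.5 in WT and 1302 in Nlrp6-/-, a ratio of 1.86. With the sums taken over genes above both floors, which leaves out Zg16, Phgr1, Krt19 and Vil1, the ratio was 1.85 for all 21 genes, 2.17 for the 12 pan-epithelial genes, 2.80 for the 4 absorptive genes and 1.06 for the 4 goblet genes. Such sums add levels of different probes and are weighted towards the brighter ones. All 12 stromal and endothelial markers were measured, and 3 were at least 2-fold higher: Mgp, a matrix protein, at 7.43 and 8.88, Col1a2, a collagen chain, at 6.07 and 7.26, and Lum, a matrix proteoglycan, at 3.82 and 5.00. The proteoglycan Dcn was just short of 2-fold at 7.48 and 8.46. Others of the list were close to level or lower in Nlrp6-/-, with the collagen chain Col1a1 at 5.19 and 5.23, the muscle proteins Acta2 at 6.30 and 6.14 and Des at 3.93 and 3.88, and the endothelial cadherin Cdh5 at 3.88 and 3.49. The endothelial genes Pecam1 and Kdr differed by 0.24 and 0.19. Their summed level was 761.3 in WT and 1364 in Nlrp6-/-, and their median difference was 0.27. All 10 plasma cell markers were measured and 1 was at least 2-fold higher, the endoplasmic reticulum protein Mzb1 at 5.22 and 6.84. The antibody joining chain Jchain was at 9.22 and 10.09, Sdc1 at 7.75 and 8.15, and Prdm1 at 8.32 and 8.13. Their summed level was 1340 in WT and 1996 in Nlrp6-/-, with a median of 0.41.

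Neutrophil, T and NK and dendritic cell markers gave mixed values. Of 12 neutrophil markers 6 were measured and 1 was at least 2-fold higher, the secreted Retnlg at 3.23 and 5.21. Retnlg was below the floor in WT, so it could only be higher in Nlrp6-/-. The summed level was 586.7 in WT and 692.6 in Nlrp6-/-, and the ratio over genes above both floors was 1.13. In that list Csf3r was at 8.25 and 8.20, Lcn2, which inflamed epithelium also makes, at 6.90 and 7.77, and Mmp8 at 7.09 and 6.92. Of 9 matched T and NK markers 6 were measured and 1 was at least 2-fold higher, the protease Gzma at 2.88 and 4.61. Gzma too was below the floor in WT. The summed level of the T and NK markers was 89.4 and 119.2, and the ratio over genes above both floors was 1.13. The T cell receptor subunits Cd3d and Cd3e were at 4.52 and 4.99 and at 4.21 and 3.98, and Nkg7 was at 4.41 and 4.54. Of 9 matched dendritic cell markers 3 were measured and 0 were 2-fold apart, with Ccr7 at 8.12 and 7.99, Cd209a at 5.55 and 5.11, Fscn1 at 3.43 and 3.58, and a summed level of 336.1 and 301.3. The part of carried-over cells or free RNA in the epithelial differences was not tested.

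**Figure D4:**
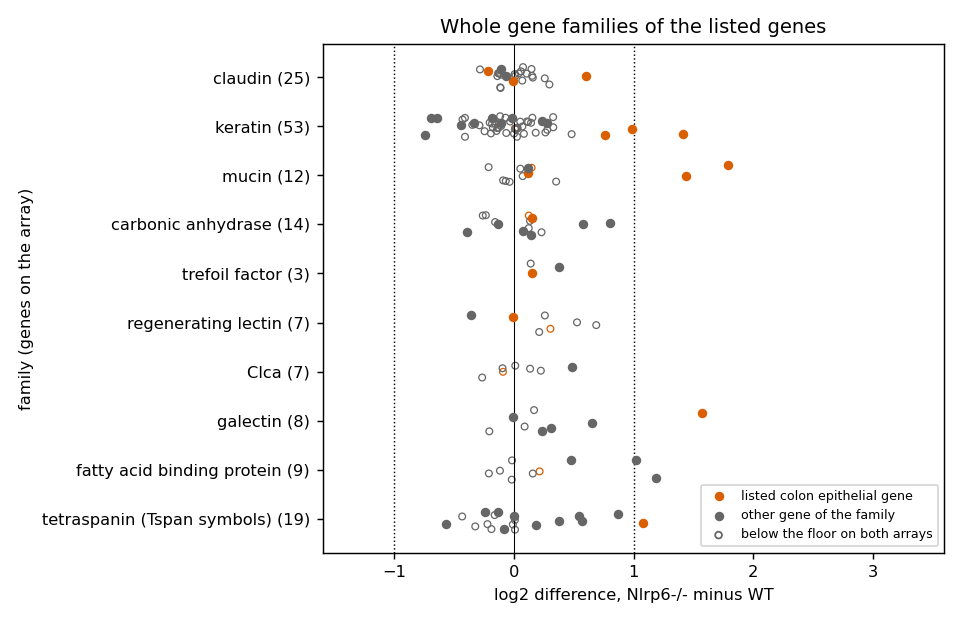
Log2 difference (Nlrp6-/- minus WT) of every gene in 10 families that contain a listed gene, with listed genes in orange and the others in grey. Filled points are detected genes and dotted lines mark 2-fold. The listed keratins Krt8, Krt18 and Krt19 lie to the right, and Krt14, at -0.75, is the leftmost measured keratin.

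Of the 39 genes, 6 lie on chromosome 7, which also carries Nlrp6, and 2 of those 6, Zg16 and Lgals4, were at least 2-fold higher. The share over all detected genes of any chromosome was 1.62%. Muc2 was the closest of the 6 to Nlrp6 in gene order, with 39 protein-coding genes between them in GRCm38.p6, and was level. Zg16 has 176 protein-coding genes between it and Nlrp6 and 21 between it and Gdpd3, a lysophospholipase gene at 2.85 in WT and 7.41 in Nlrp6-/-. The probe set of Nlrp6 lay below both floors, at 2.32 and 2.67. Chromosomal position and genotype cannot be told apart here, and the region around the knockout allele was not analysed here.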

How the data were processed

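RNA of sorted colon lamina propria monocytes was measured on 2 Affymetrix Mouse Gene 2.1 ST arrays, 1 per genotype as the labels name it. Per the labels' protocols, 10 ng of RNA was amplified and the authors computed the deposited log2 levels by RMA with the oligo package in R 2.15.1. The protocol text also mentions log2 ratios and names 2 labelling kits. The columns span the range of log2 levels, with medians of 2.87 and 2.84 and none below 0, and were read as levels; the kit used is not settled. RMA equalises the distributions of arrays, so a shift of all transcripts cannot be seen. The set of arrays that RMA was run over is not stated in the labels.

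Of 41345 probe sets, 23525 had 1 gene symbol in the platform annotation, 1810 several and 16010 none, and genes were read from the first kind alone. Floors, bounds and the 2-fold rule are described with the results. All members were named, with the 3 largest differences of each further epithelial list and the 3 highest levels of each list of other cells. Genes below both floors and further genes of whole families were named outside this rule, after their values were seen. So were Fcgr1, Ly6c2, Ccr2, Lyz2, Saa3, Reg4, Mzb1, Lum, Col1a1, Acta2, Des, Cdh5, Pecam1, Kdr, Retnlg, Gzma, Gdpd3, Cdh17, Tmprss2 and Rab25. No test was run. The members and lists were chosen with earlier results of these data known. The calling steps were tested on simulated arrays. Alternatives covered normalization, floor, probe set and fold. Python 3.11.15, pandas 2.3.3 and statsmodels 0.14.6 were used. The number of arrays limits the precision.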

Additional observations from a re-analysis of the deposited data

How the results depend on the processing

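With 1 array per genotype no error could be set, so a difference was taken as moved when it shifted by at least 0.19, the SD of the receptor probe sets. Of 25 measured members, 11 were at least 2-fold higher, against 1.62% of all measured genes. They became 4 of 14 when the floor was raised to the receptors' 99th percentile (5.08 in WT and 4.90 in Nlrp6-/-), against 1.88%. These were Lypd8, Lgals4, Muc3 and Guca2a. At a 3-fold threshold there were 2 of 25, against 0.304%. At 1.5-fold there were 15, against 6.21% of all measured genes. Zg16 and Krt19 among the 15 passed the floor in Nlrp6-/- alone, where they could only be higher. Under the other alternatives there were from 9 to 12, against 0.753% to 1.66%, with 0 lower throughout. The median over measured genes, 0.95, was 1.25 with the stricter floor (likewise 1.25 for the pan-epithelial genes), 0.21 without a floor and 0.68 with the probe set of smallest difference, an alternative chosen after seeing the data. The absorptive median of 1.44 was 0.18 without a floor, and 1.11 as a mean. The goblet median of 0.11 was 0.49 as a mean, which Zg16 raises. With the mean of all probe sets Cdh1 was at 0.88, Krt18 at 0.87 and Phgr1 at 0.37. A count was taken as moved when it changed by more than a factor of 1.5. Of 58 alternative values of these counts and medians, 49 stayed within these limits. The 58 include the counts of lower genes, which were 0 under every alternative. No paired analysis was possible because each genotype has a single array.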

Other observations

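Whole gene families were examined after the data were seen. Among keratins, 13 of 53 on the array were detected. The simple keratins Krt8, Krt18 and Krt19 were all higher in Nlrp6-/-. Krt19 passed the floor in Nlrp6-/- alone, where it could only be higher, and the second probe set of Krt18 differed by 0.33. The listed keratin Krt20 was below both floors. Of the 10 other measured keratins, most of them known from stratified epithelia, hair or skin, 8 were lower in Nlrp6-/- and 2 higher, with a median difference of -0.26, whereas 51.6% of all 9528 detected genes were higher by any amount. Of the 10, 2 reached 1.5-fold lower, and Krt6a and Krt6b passed the floor in WT alone, where they could only be lower. Krt14, a keratin of basal cells in stratified epithelium, was at 5.11 in WT and 4.36 in Nlrp6-/-, differing by -0.75. Krt15, also a basal keratin, was at 4.25 and 3.56, differing by -0.69. Krt6a read 3.51 in WT and lay below the floor in Nlrp6-/- at 2.86.

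For each family count below, the share over all 9528 detected genes was 1.62% at least 2-fold higher and 0.325% lower. Of 12 mucin genes 4 were measured, and the membrane mucins Muc13 and Muc3 were 2-fold apart while Muc2 and Muc3a were not. Muc3a was at 3.25 in WT, below the floor, and 3.37 in Nlrp6-/-, so it could only be higher there. Of 8 galectins 5 were measured, and only Lgals4 was 2-fold apart. Lgals9 read 7.22 in WT and 7.88 in Nlrp6-/-, and Lgals3 at 5.02 and 5.01. Of 14 carbonic anhydrases 7 were measured and 0 were 2-fold apart, with Car13 at 8.52 and 9.33 and Car2 at 5.30 and 5.88. The intestinal Fabp2 was undetected, whereas Fabp4, of macrophages, fat and endothelium, read 4.99 in WT and 6.18 in Nlrp6-/-, and Fabp5, of macrophages and epithelia, at 9.003 and 10.02. The only regenerating lectins measured, Reg3b and Reg4, were not higher, with Reg4 at 3.67 and 3.31.

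Probe sets with several symbols held further epithelial genes that could not be told apart. The one shared by Saa1 and Saa2, acute-phase proteins of inflamed gut and liver, was at 2.37 in WT and 3.67 in Nlrp6-/-. The one shared by Gsdmc4 and Gsdmc2, gasdermins, was at 2.90 and 4.28, and that of Duoxa2 and Duoxa1 was at 3.03 and 3.69. In all 3 the WT level was below its floor. The one shared by Fxyd3 and Lgi4 was at 4.65 and 4.93. The one shared by Muc20 and Muc4 was lower in Nlrp6-/-, at 2.70 and 2.49, but below both floors. Those of Neurod1 and Cerkl and of Plet1 and Plet1os were also below both floors.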
